A study of Mus musculus with 3 samples.

Results

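Alpha-beta T cells without Cd8 were taken from single-cell RNA libraries of the epithelial fraction of the mouse small intestine. Cells were chosen by their UMI counts of the genes named next: a barcode was counted when it held 800 to 50000 UMIs (unique molecular identifiers, each marking 1 captured RNA molecule), at most 40% mitochondrial UMIs, at least 2 UMIs of the Cd3 genes Cd3e, Cd3d and Cd3g together, and at least 2 UMIs of the alpha-beta receptor constant genes Trac, Trbc1 and Trbc2 together. It also had to hold no UMI of Cd8a, Cd8b1 or the delta chain gene Trdc, and less than 2% of its UMIs from the enterocyte genes Apoa1, Apoa4, Fabp1, Rbp2 and Alpi. These limits kept 217 of the 27235 barcodes, or of the 16774 barcodes within the UMI and mitochondrial limits. The libraries came from wild-type (WT) C57BL/6N male mice of 12 weeks, and no treatment or other genotype is labelled: the duodenum, the jejunum and the ileum gave 1 library each, and each library pooled the cells of 3 mice. Epithelial and intraepithelial immune cells were shaken off the tissue and sorted as propidium iodide-negative live cells, so no antibody against CD4, CD8 or CD3 chose them. Because each segment had 1 library, segments were not tested against each other, and intervals on counts cover counting error only. Each of the 14 genes used by the limits, Cd8a among them, describes the choice and was left out of every test.

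T cells with an alpha-beta receptor carry CD4 or CD8 beside the receptor as a coreceptor that binds MHC class II or class I. Conventional CD4 T cells help other cells through cytokines and through surface ligands such as CD40 ligand, need CD28 for full activation, and are mostly found in the lamina propria below the gut epithelium. The epithelium itself is dominated by CD8-bearing and gamma-delta T cells that hold on to enterocytes through the integrin CD103, whose alpha chain is encoded by Itgae, and that are rich in cytotoxic genes. A further set of intraepithelial alpha-beta T cells, often called natural, carries neither CD4 nor CD8 beta and uses receptors and adaptors otherwise known from natural killer cells.

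The duodenum held 9 of the Cd8-negative cells, the jejunum 17 and the ileum 191, which was 0.210%, 0.388% and 2.35% of the barcodes within the limits. Library quality differed: ileum barcodes within the limits had a median mitochondrial share of 11.1%, against 27.1% for jejunum and 27.0% for duodenum barcodes. The limits on UMIs and mitochondrial share kept 8113 of 9595 ileum barcodes, 4380 of 8139 jejunum barcodes and 4281 of 9501 duodenum barcodes. The ileum library held most of the Cd8-negative cells, also as a share, but the part of library quality in this was not tested. Among all 696 alpha-beta T cells they made up 31.2% (exact 95% binomial interval 27.8 to 34.8), and this share came to 42.9% (21.8 to 66.0) for duodenum cells, 34.7% (21.7 to 49.6) for jejunum cells and 30.5% (26.9 to 34.3) for ileum cells. The 3 intervals overlapped. Of the Cd8-negative cells, 74 held a Cd4 UMI, or 34.1% (27.8 to 40.8), namely 4 of 9, 5 of 17 and 65 of 191 cells. Cd4 was seen in 0.0164% of 6092 enterocyte barcodes, which should lack it and had a median depth of 10185 UMIs against 3815 in the Cd8-negative cells. These barcodes were chosen to hold no UMI of the Cd3 or alpha-beta receptor genes. Shares in them can therefore understate stray T cell RNA.

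**Figure D1:**
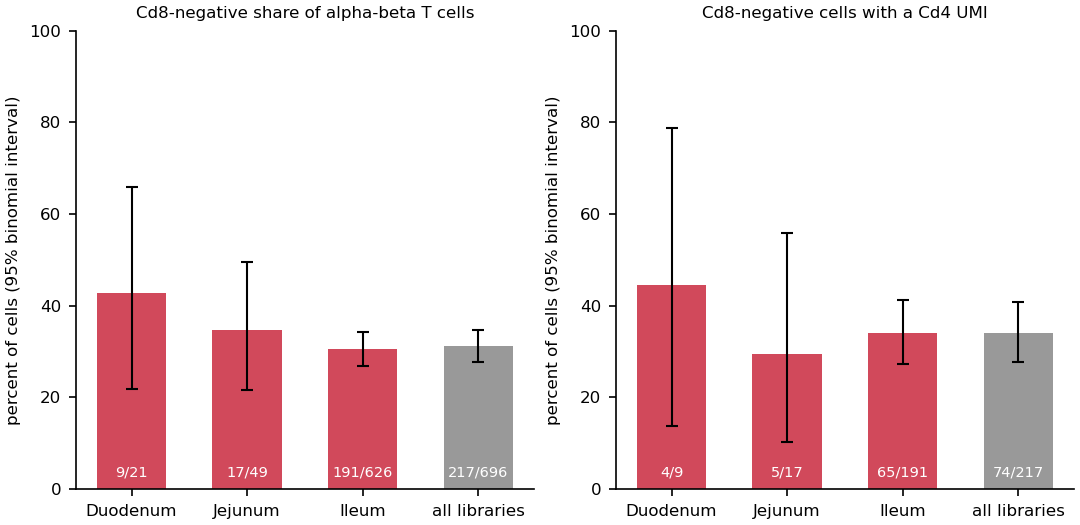
Left, Cd8-negative cells as a percentage of all alpha-beta T cells; right, percentage of Cd8-negative cells with at least 1 Cd4 UMI, each by library and over all libraries. Bars are shares and lines are exact 95% binomial intervals, which are widest in the duodenum (9 cells) and overlap between all 3 segments.

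The other T cells under the same limits were used for comparison. They were 314 alpha-beta cells with a Cd8b1 UMI (Cd8b1-positive), 165 alpha-beta cells with Cd8a but no Cd8b1 (Cd8a-only) and 581 gamma-delta T cells with at least 2 Trdc UMIs. Depth was close in the 4 classes, with a median of 3815 UMIs a cell in the Cd8-negative cells, 3956 in the Cd8b1-positive, 3875 in the Cd8a-only and 4378 in the gamma-delta cells. A cell can lack a Cd8 UMI for want of depth, so shares are given by depth: the Cd8-negative share of alpha-beta T cells was 35.9% at 800 to 2000 UMIs, 31.1% at 2000 to 4000, 28.5% at 4000 to 8000, and 16 of 40 cells above that. The share with Cd4 did move with depth, from 12.1% in the shallowest of these bins to 35.2%, 42.5% and 31.3%, and it was 9.68% after each cell was thinned to 800 UMIs. Cd8-negative cells had fewer Cd3 UMIs (median 9) than Cd8b1-positive (14), Cd8a-only (16) and gamma-delta cells (25), and a higher median mitochondrial share (6.26% against 5.28%, 5.27% and 4.61%). The limits left out 40 alpha-beta cells with exactly 1 Cd8 UMI and 22 with exactly 1 Trdc UMI. At the receptor limit, 18 cells were kept with exactly 2 UMIs and 14 left out with 1, and at the Cd3 limit 16 were kept with 2 and 23 left out with 1. Median alpha-beta receptor UMIs were 15 in Cd8-negative, 12 in Cd8b1-positive, 13 in Cd8a-only and 9 in gamma-delta cells. Most gamma-delta cells thus met the receptor limit, and it was their Trdc UMIs that kept them apart. No barcode sequence of a Cd8-negative cell recurred in another library, while 70 barcode sequences among all barcodes did.

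The labelled identity was checked with its markers. Trac was seen in 85.7% of the Cd8-negative cells. Of the 2 beta-chain constant genes, which lie 6.848 kb apart on chromosome 6, 62 cells held only Trbc2, 18 held only Trbc1 and 137 held both. Both receptor genes belong to the limits, so only Cd4, Cd28 and Il7r test the label, and all 3 are described next. Cd28 was in 56.7% of the cells, Il7r in 46.1% and Cd4 in 34.1%, so no marker outside the limits covered all cells.

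UMIs were summed over the cells of a class in a library, and the sums of at least 10 cells were fitted together in edgeR with a term for the library. The 9 duodenum cells were therefore not in the fits, which rest on 208 Cd8-negative cells from jejunum and ileum. Of 6510 genes tested, 148 (2.27%) were higher and 71 (1.09%) lower in Cd8-negative than in Cd8b1-positive cells at an adjusted p of at most 0.05. Against Cd8a-only cells 146 (2.24%) were higher and 95 (1.46%) lower, and against gamma-delta cells 213 (3.27%) were higher and 140 (2.15%) lower. The fits share the Cd8-negative sums, so the genes called in all 3 comparisons, 74 higher and 32 lower, are a description of these sums and not 3 separate tests. DESeq2 called 35, 60 and 83 genes in the same comparisons, and leaving out the ileum, with sums of at least 5 cells, called 7, 33 and 78. DESeq2 tested the same 6510 genes, and the fit without the ileum tested 2050. The median log2 fold change over the 6510 genes was 0.01, 0.00 and -0.03. Levels below are UMIs per 10000 UMIs of the summed cells, and values for 3 libraries are in the order duodenum, jejunum, ileum. A library at 0 allows up to 3 UMIs.

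The promoters of these genes were read to show what they share besides the direction of change. Sequences are the 250 bases before the listed start, from RefSeq on GRCm38.p6, written along the gene's strand. Capitals mark the letters TGTGGT, or ACCACA on the other strand, known as the core read by RUNX factors, which include Runx3 itself.
Runx3 (chr4:135120395-135120644, + strand, lower in all 3 comparisons): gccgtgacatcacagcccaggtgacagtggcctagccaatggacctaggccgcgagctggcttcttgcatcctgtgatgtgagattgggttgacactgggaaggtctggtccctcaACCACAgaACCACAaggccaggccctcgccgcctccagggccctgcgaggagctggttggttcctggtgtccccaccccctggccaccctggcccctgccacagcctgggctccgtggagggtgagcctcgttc
Xcl1 (chr1:164935523-164935772, - strand, lower in all 3): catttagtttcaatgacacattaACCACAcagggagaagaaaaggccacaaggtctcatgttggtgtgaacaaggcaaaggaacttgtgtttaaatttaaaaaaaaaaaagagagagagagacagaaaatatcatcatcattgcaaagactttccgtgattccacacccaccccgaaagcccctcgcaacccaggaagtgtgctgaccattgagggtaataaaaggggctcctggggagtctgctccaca
Ctla4 (chr1:60908775-60909024, + strand, higher in all 3): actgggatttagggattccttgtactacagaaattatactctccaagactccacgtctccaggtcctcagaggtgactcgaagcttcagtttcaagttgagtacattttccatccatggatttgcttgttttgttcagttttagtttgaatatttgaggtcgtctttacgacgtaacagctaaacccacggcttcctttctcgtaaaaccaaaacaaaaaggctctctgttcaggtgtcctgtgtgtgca
Slamf6 (chr1:171917212-171917461, + strand, higher in all 3): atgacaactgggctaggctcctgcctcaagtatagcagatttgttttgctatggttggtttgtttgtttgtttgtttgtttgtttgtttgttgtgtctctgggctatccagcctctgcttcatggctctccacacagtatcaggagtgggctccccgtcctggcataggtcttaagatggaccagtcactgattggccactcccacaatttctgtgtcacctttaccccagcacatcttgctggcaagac
Izumo1r (chr9:14903768-14904017, - strand, higher in all 3): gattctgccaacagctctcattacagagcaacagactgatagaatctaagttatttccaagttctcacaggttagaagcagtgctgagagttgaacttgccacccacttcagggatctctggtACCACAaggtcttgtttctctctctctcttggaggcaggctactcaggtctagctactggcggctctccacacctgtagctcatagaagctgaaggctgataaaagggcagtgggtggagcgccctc
The letters stand 134 and 126 bases before the start of Runx3 and 227 before that of Xcl1, and are not in the windows of Ctla4 and Slamf6. Direction and letters do not go together throughout: Izumo1r, a higher gene, holds them 127 bases before its start, and a second listed start of Runx3 (chr4:135152295-135152544) has none. Counts below take the first listed start of each gene. A promoter was listed for 19 of the 32 genes lower in all 3 comparisons, and 9 of these (47.4%) held the letters on either strand: Runx3, Xcl1, Nkg7, Ccl3, Cst7, Cd160, Gpr55, Jaml and Actn2. They were in 7 of 54 listed promoters of the genes higher in all 3 (13.0%), in 565 of 5190 of all genes tested (10.9%) and in 3832 of all 27025 (14.2%). In all, 5 motifs were searched this way on both strands, each counted alone. The letters TGANTCA of AP-1 factors were in 1 of the 19 promoters and 3 of the 54, and the letters CTTTGA of TCF factors in 2 and 3. Those of GATA factors, AGATAA, were in none of the 19 and 2 of the 54, and GGGANTTCC of NF-kB factors was in none and 1. Among the 5190 listed promoters of all genes tested, the shares were 4.08% for AP-1, 10.6% for TCF, 5.61% for GATA and 2.12% for NF-kB. Such matches describe the letters in a window and do not show binding, and no test was made of them.

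Cd4, the class II coreceptor, encoded on chromosome 6 (124864692 to 124888221, - strand, GENCODE M21 on GRCm38), was at 1.25, 1.01 and 1.33 UMIs per 10000 in the Cd8-negative cells of duodenum, jejunum and ileum. In Cd8b1-positive cells Cd4 was at 0, 0 and 0.00743, in Cd8a-only cells at 0, 0 and 0.193, and in gamma-delta cells at 0, 0.0272 and 0.0152. Each Cd8-negative library was above all 9 others. A single Cd4 UMI in the Cd8b1-positive cells gave a ratio of 183 (exact Poisson interval 32.2 to 7277), and the log2 difference was 3.02 ± 0.49 (SE) against Cd8a-only cells (edgeR adjusted p = 4.44e-06) and 6.19 ± 0.53 against gamma-delta cells (edgeR adjusted p = 4.36e-16). Cd4 was seen in 34.1% of Cd8-negative, 0.318% of Cd8b1-positive, 4.85% of Cd8a-only and 0.861% of gamma-delta cells. The call for Cd4 passed under every alternative that tested Cd4. Against Cd8b1-positive and gamma-delta cells these were 14, while Izumo1r was tested in 15, so 1 setting did not test Cd4.

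In each comparison taken alone, most of the costimulation and activation genes tested were higher in the Cd8-negative cells. Of 15 genes tested from a list of 17 costimulation and activation genes, 9 were higher than in Cd8b1-positive, 10 higher than in Cd8a-only and 11 higher than in gamma-delta cells, and none was lower in any, with medians of 1.27, 2.08 and 3.66 on the log2 scale. Cd28, which provides the second signal of activation (chromosome 1, 60716800 to 60773359), stood at 3.24, 8.36 and 4.20 UMIs per 10000 in the 3 libraries. In Cd8b1-positive cells Cd28 was at 2.41, 1.28 and 0.661, in Cd8a-only cells at 1.86, 0 and 0.193, and in gamma-delta cells at 0, 0.163 and 0.0342. No other library reached the lowest of the Cd8-negative ones. The log2 differences were 2.70 ± 0.26 (edgeR adjusted p = 1.83e-13), 4.89 ± 0.35 (edgeR adjusted p = 4.62e-19) and 6.55 ± 0.32 (edgeR adjusted p = 2.33e-29). Cd28 was in 56.7% of Cd8-negative cells against 16.9%, 7.27% and 1.38% of the other classes and 0.0657% of enterocyte barcodes.

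Icos and Ctla4 lie next to Cd28 on chromosome 1, with gaps of 113.64 kb from Cd28 to Ctla4 and 62.094 kb from Ctla4 to Icos, and moved with it. Icos, a costimulator of helper T cells, was at 4.49, 4.47 and 2.92 UMIs per 10000, against 4.01, 0.638 and 0.320 in Cd8b1-positive cells. It was 0, 0 and 0.158 in Cd8a-only and 0, 0.190 and 0.0723 in gamma-delta cells, so that the 4 Cd8b1-positive cells of the duodenum alone overlapped with the Cd8-negative range. Icos differed by 3.16 ± 0.31, 4.57 ± 0.40 and 5.17 ± 0.32 on the log2 scale (edgeR adjusted p = 7.79e-13, 5.24e-15 and 1.36e-22). Ctla4, the inhibitory counterpart of Cd28, was at 1.99, 5.91 and 2.22 UMIs per 10000, while no library of the other classes exceeded 1.49. Its differences were 2.51 ± 0.30, 4.08 ± 0.39 and 4.40 ± 0.30 (edgeR adjusted p = 7.15e-10, 1.17e-13 and 4.14e-21). Without the ileum library the difference from Cd8b1-positive cells kept its size but did not pass for Cd28 (2.61), Icos (3.0) and Ctla4 (2.14), and without the library term that of Ctla4 did not pass either.

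The remaining costimulation genes include ligands and receptors of T cell help. Cd40lg, which encodes CD40 ligand, was at 0.249, 1.15 and 0.729 UMIs per 10000 and in 20.7% of cells. It differed from Cd8b1-positive cells by 4.34 ± 0.71 (edgeR adjusted p = 4.39e-06), and the 1 Cd40lg UMI of Cd8a-only and 3 UMIs of gamma-delta cells gave ratios of 49.5 (8.60 to 1984) and 76.5 (25.1 to 380). Tnfrsf4, which encodes the costimulator OX40, was at 2.49, 1.15 and 1.11, with 1 UMI in Cd8b1-positive cells and 0 in Cd8a-only cells. The latter makes it at least 26.2-fold higher in the Cd8-negative cells, with the class at 0 set to 3 UMIs, and its difference from gamma-delta cells was 4.66 ± 0.46 (edgeR adjusted p = 3.48e-13). Without the ileum library the Tnfrsf4 call was lost in all 3 comparisons (4.25 against gamma-delta cells). Cd5, a brake on receptor signalling, was 5.66 ± 0.41 above gamma-delta cells (edgeR adjusted p = 2.96e-19) and 2.08 above Cd8a-only cells (1.43 without the jejunum and 1.98 without the ileum library, neither called), but 0.82 ± 0.30 against Cd8b1-positive cells did not pass (edgeR adjusted p = 0.176). Cd2, an adhesion receptor, was 1.03, 2.12 and 3.75 above the other classes, the first of which did not pass in DESeq2, without the library term, without the jejunum (1.00) or without the ileum library (0.72), and the second not without the ileum library (1.62). Pdcd1, which encodes the inhibitory receptor PD-1, was 2.71, 3.0 and 3.66 above them, and DESeq2 did not call the first 2, nor did the second pass without the jejunum library (2.35).

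**Figure D2:**
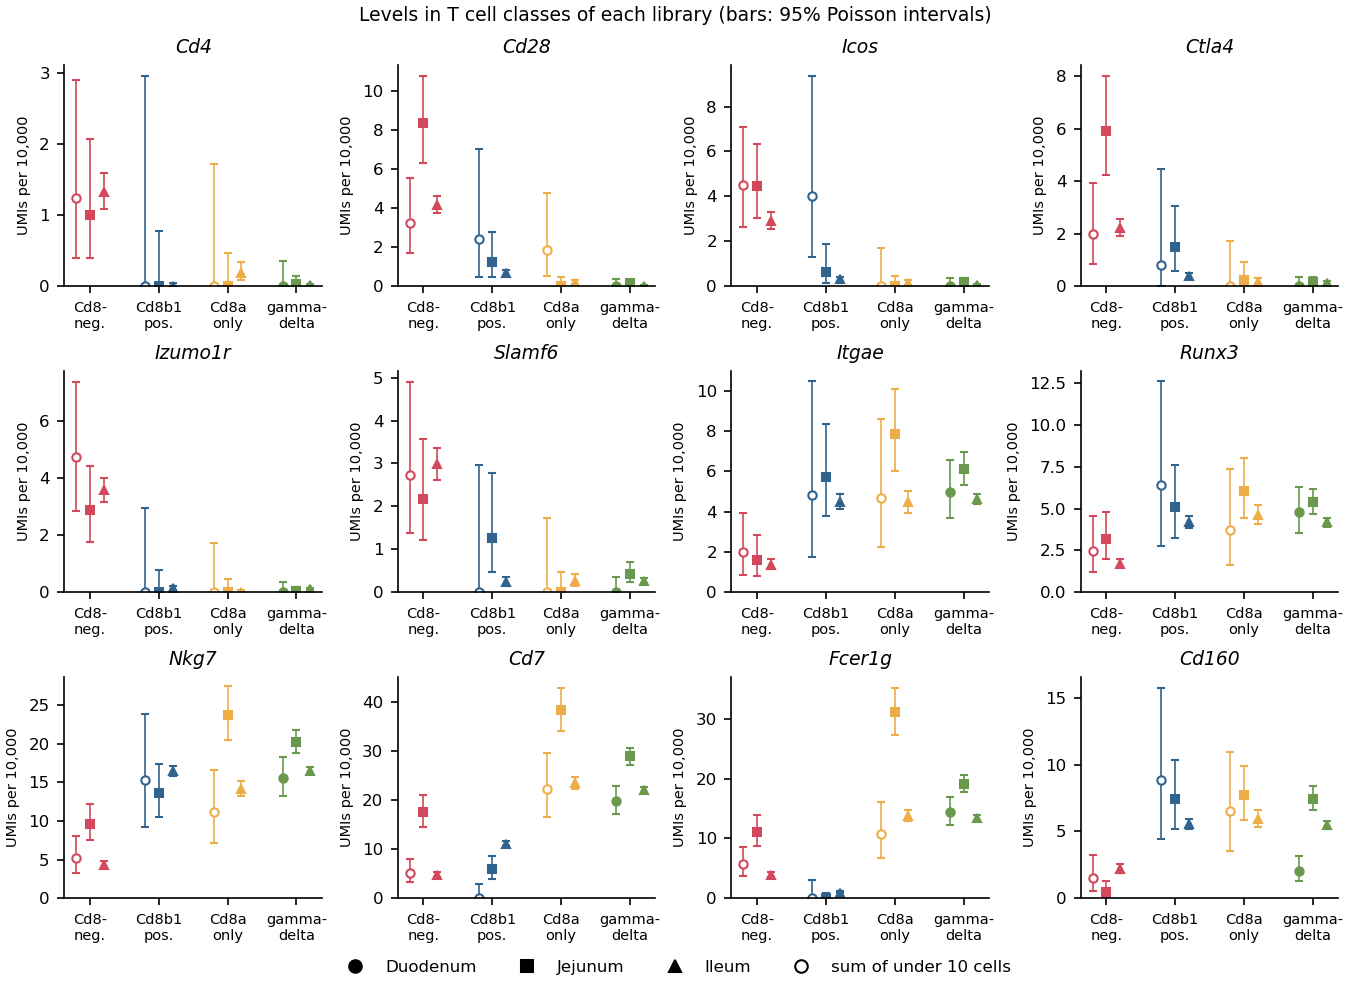
Levels of 12 genes in UMIs per 10000 UMIs (vertical axes) for the 4 T cell classes, with 1 point per library and exact Poisson 95% intervals; open circles are sums of fewer than 10 cells. The Cd8-negative points lie above all others for Cd4, Cd28, Ctla4, Izumo1r and Slamf6 and below all others for Itgae, Runx3 and Nkg7.

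Izumo1r, which encodes folate receptor 4 and is known from regulatory and follicular helper T cells, was among the most uneven genes between the classes. It was at 4.74, 2.88 and 3.58 UMIs per 10000 in Cd8-negative cells and in 47.0% of them. All libraries of the other classes were at or below 0.134. Its difference was 4.82 ± 0.37 from Cd8b1-positive cells (edgeR adjusted p = 1.22e-17; 8.12 and no longer called without the ileum library) and 5.16 ± 0.33 from gamma-delta cells (edgeR adjusted p = 1.95e-22). Cd8a-only cells held no Izumo1r UMI, which makes it at least 79.7-fold higher in the Cd8-negative cells. Slamf6, a receptor of the SLAM family, was at 2.74, 2.16 and 2.98 UMIs per 10000 and no more than 1.28 in any other library, with differences of 3.21 ± 0.35, 3.68 ± 0.40 and 3.33 ± 0.30 (edgeR adjusted p = 1.98e-11, 1.92e-11 and 6.34e-15). The first of these did not pass in DESeq2, without the library term or without the ileum library (1.28). Sh2d1a, which encodes the SLAM adaptor SAP, was in 41.9% of cells and higher by 2.03, 3.04 and 3.65, but passed in no comparison without the ileum library (1.92, 2.92 and 4.96), and DESeq2 did not call the first.

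Lineage factors were uneven. Of 6 helper lineage genes, 3 were higher and 1 lower than in Cd8b1-positive cells, 1 higher and 1 lower than in Cd8a-only cells, and 2 higher and 1 lower than in gamma-delta cells, and the gene lower each time was Runx3. Zbtb7b, which encodes the CD4-lineage factor ThPOK, was 1.78 ± 0.54 above Cd8b1-positive cells (edgeR adjusted p = 0.0467), a call that was lost in DESeq2 and under 4 other alternatives, 1 of them without the jejunum library (1.72). Against Cd8a-only and gamma-delta cells it differed by 1.44 and 1.00 and did not pass (edgeR adjusted p = 0.268 and 0.292). Zbtb7b was also in 75.5% of enterocyte barcodes. Gata3 did not pass in any comparison (0.91, 1.13 and 1.04; edgeR adjusted p = 0.310, 0.166 and 0.0589). Satb1, a chromatin organiser of developing T cells, was higher by 1.69, 1.97 and 2.29, without a call in DESeq2 for the first and without the ileum library for the first 2 (2.67 and 2.65).

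Runx3, the factor of the CD8 lineage that represses Cd4, was at 2.49, 3.17 and 1.70 UMIs per 10000 in Cd8-negative cells. In Cd8b1-positive cells it was at 6.42, 5.10 and 4.19, in Cd8a-only cells at 3.73, 6.04 and 4.65, and in gamma-delta cells at 4.78, 5.38 and 4.18, so that no library overlapped with the Cd8-negative ones. Runx3 differed by -1.09 ± 0.25, -1.21 ± 0.25 and -1.07 ± 0.23 (edgeR adjusted p = 0.00220, 0.000371 and 0.000667). None of these calls passed in DESeq2 or without the library term, nor without the jejunum library (-1.20, -1.04 and -1.28) or the ileum library (-0.63, -0.69 and -0.83). Maf, a factor of several helper subsets, was at 5.24, 2.59 and 5.33 against at most 0.939 in any library of the other classes, and differed by 2.97 ± 0.27, 4.64 ± 0.35 and 2.71 ± 0.24 (edgeR adjusted p = 2.24e-14, 3.71e-18 and 1.59e-15). Without the ileum library the first Maf call was lost at 3.51. Maf was seen in 69.6% of enterocyte barcodes, in 53.9% of Cd8-negative cells and in 7.27% to 13.9% of cells of the other T cell classes. The part of enterocyte RNA in the Maf differences was not tested.

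Genes of naive and recirculating T cells were higher in the Cd8-negative cells than in Cd8a-only and gamma-delta cells almost throughout the list. Of 9 tested (12 listed), 5 were higher than in Cd8b1-positive, 8 than in Cd8a-only and 9 than in gamma-delta cells, with medians of 1.50, 2.94 and 3.09 and none lower. Il7r, which encodes the receptor of the survival cytokine interleukin 7, was at 1.25, 5.48 and 3.59 UMIs per 10000, which overlapped with the 0, 2.76 and 2.84 of Cd8b1-positive cells. It differed from these by 0.54 ± 0.24 (edgeR adjusted p = 0.360), and by 2.94 ± 0.30 from Cd8a-only (edgeR adjusted p = 2.87e-12; 1.97 and not called without the ileum library) and 2.84 ± 0.24 from gamma-delta cells (edgeR adjusted p = 7.50e-16). More Cd8b1-positive (57.0%) than Cd8-negative cells (46.1%) held Il7r, so this marker did not separate them. Ccr7, the homing receptor for lymph nodes, was at 0.249, 2.88 and 1.47 and differed by 2.70, 4.09 and 4.38, while DESeq2 lost all 3 calls and the first 2 did not pass without the ileum library (7.96 and 7.63). S1pr1, needed to leave tissue into lymph, was higher by 1.88, 3.31 and 3.52, of which DESeq2 called the last, and the first did not pass without the jejunum library (1.77).

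Expression of Ccr7 was gathered in a minority of the cells. Of 38 cells with a Ccr7 UMI, 28 also held Lef1, 29 held Klf2 and 20 held S1pr1, while 2 held Itgae. Lef1 and Tcf7, partner factors of naive and memory T cells, were in 26.3% and 50.7% of all Cd8-negative cells. Lef1 was higher by 1.50, 2.86 and 3.09, and Tcf7 by 1.59, 1.96 and 2.03. DESeq2 did not call the first Lef1 difference (also lost without the jejunum library, 1.38) or the first 2 of Tcf7, and none of the Tcf7 calls passed without the ileum library (0.13, 1.35 and 2.14). In the jejunum Tcf7 was slightly lower in Cd8-negative (1.59) than in Cd8b1-positive cells (1.70). Klf2, which drives S1pr1, was 2.63 above Cd8a-only and 2.96 above gamma-delta cells, both without a call in DESeq2, and 0.88 ± 0.28 against Cd8b1-positive cells did not pass (edgeR adjusted p = 0.0666).

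Genes that define helper subsets were seen in few cells. Foxp3, the defining factor of regulatory T cells, gave 21 UMIs in 10 Cd8-negative cells (4.61%, exact interval 2.23 to 8.31), none in Cd8b1-positive or Cd8a-only cells, 7 in gamma-delta cells and none in enterocyte barcodes. Of the 10 cells, 8 held Ctla4, 9 held Ikzf2, 5 held Il2ra and 3 held Cd4. Ikzf2, which encodes Helios, was at 6.73, 4.61 and 3.65 UMIs per 10000. It was 1.95 ± 0.27 above Cd8b1-positive cells (edgeR adjusted p = 8.90e-08), but its lower levels against Cd8a-only (-0.75) and gamma-delta cells (-0.61) did not pass. Of 5 regulatory genes tested (10 listed), 5, 3 and 3 were higher and none lower (medians 2.51, 4.08 and 4.40), and 3 of the 5, Ctla4, Tnfrsf4 and Izumo1r, belong to activated helper cells as well.

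Cytokine genes rested on a handful of cells. Il17a gave 56 UMIs in 5 cells, all of the ileum, with 67.9% in 1 of them; 4 held Cd4 and 3 held the receptor gene Ccr6. Il10 gave 33 UMIs in 6 cells, with 51.5% in 1 cell. Il21, the cytokine of follicular helper cells, gave 22 UMIs in 11 cells, 7 of them with Cd4, and none in the other 3 classes. Il4 gave 14 UMIs in 8 cells, with 3 UMIs in gamma-delta cells and none in the others. The interferon gamma gene Ifng, at 14 UMIs in 9 cells, differed by -1.50, -0.01 and 0.24 and did not pass. Among the lists, type 17 genes had 1, 2 and 2 of 3 tested higher (Maf each time, with Tmem176b against Cd8a-only and gamma-delta cells). Type 1 genes had 1 of 6 higher each time (Il18r1) and 1 lower than in Cd8b1-positive cells (Cxcr3, -1.44, not called by DESeq2), and type 2 genes had 1, 0 and 1 of 2 higher.

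Of 5 follicular helper genes tested, 4 were higher in each comparison, with medians of 3.09, 3.68 (3.20 with genes against a class at 0 set to their bound) and 3.66. These were Icos, Pdcd1, Slamf6 and Tox2, while Bcl6, the factor of that subset, did not pass. Tox2 gave 39 UMIs in 26 cells and differed by 3.09 and 5.14 from Cd8b1-positive and gamma-delta cells, and was at least 9.20-fold above Cd8a-only cells. Cxcr5, the receptor that leads to follicles, was in 17 cells, of which 14 held Icos and 10 held Pdcd1. Innate-like T cell genes had 2 of 3 tested higher than in Cd8b1-positive and 1 lower than in Cd8a-only cells, and Zbtb16, which encodes the factor PLZF of that lineage, gave 4 UMIs in 3 cells.

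**Figure D3:**
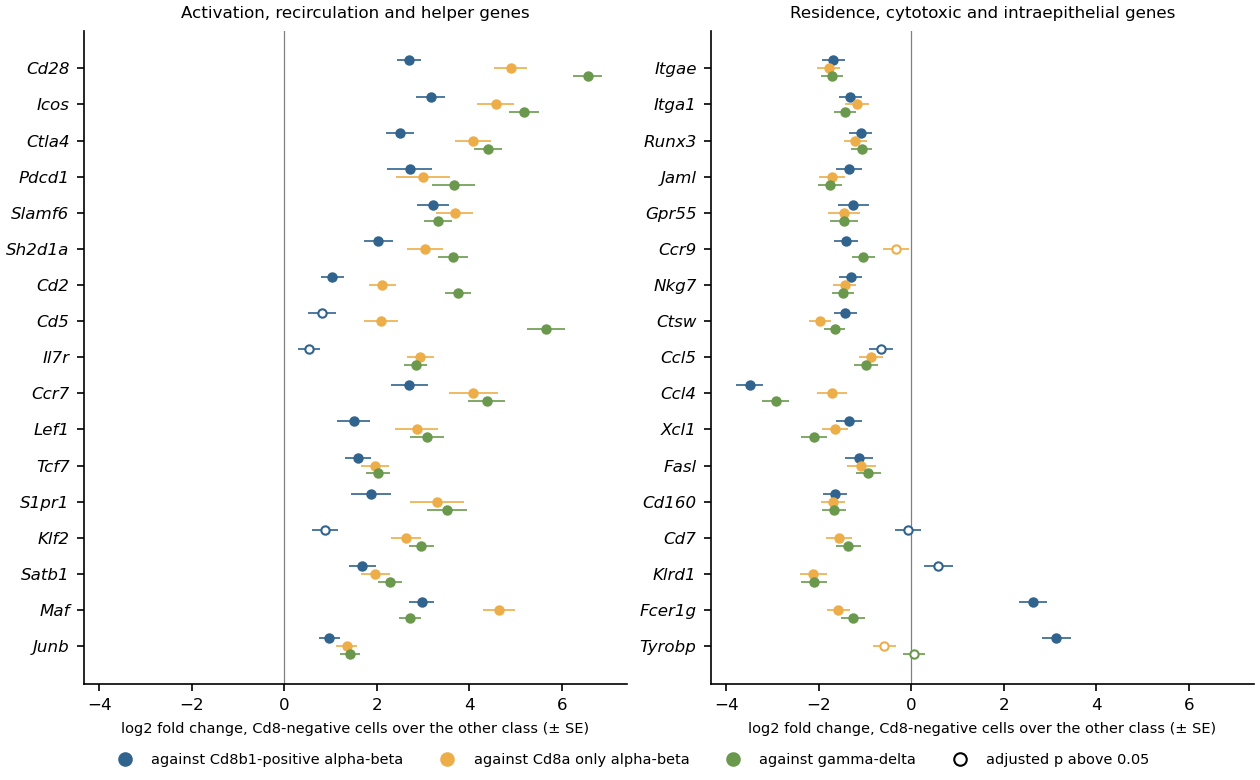
Log2 fold change of Cd8-negative cells against each of the 3 other T cell classes (colours), with bars of 1 SE; open symbols have an edgeR adjusted p above 0.05. Costimulation, helper and early response genes (left) lie above 0, residence and cytotoxic genes (right) lie mostly below, and Fcer1g lies above 0 against Cd8b1-positive cells and below 0 against the other classes.

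Some genes of residence in the epithelium were lower, Itgae and Itga1 among them. Of 15 residence and gut homing genes, 8, 5 and 6 were lower and 1, 0 and 1 higher, with medians of -1.07, -0.66 and -0.74. Itgae (chromosome 11, 73090583 to 73147446) was at 1.99, 1.59 and 1.38 UMIs per 10000 in Cd8-negative cells. It was at 4.82, 5.74 and 4.50 in Cd8b1-positive cells, at 4.66, 7.84 and 4.46 in Cd8a-only cells and at 4.98, 6.11 and 4.63 in gamma-delta cells. Each Cd8-negative library was thus below the 9 others, and 27.6% of cells held Itgae against 78.3%, 76.4% and 85.0%, and 0.460% of enterocyte barcodes. The differences were -1.68 ± 0.25, -1.78 ± 0.25 and -1.71 ± 0.24 (edgeR adjusted p = 6.33e-07, 1.60e-07 and 7.15e-08). DESeq2 called all 3. Without the jejunum library the first 2 did not pass (-1.63 and -1.39), nor did the first without the ileum library (-1.53).

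Itga1, the collagen-binding partner of residence integrins, was at 0.748, 1.44 and 1.35 against at least 1.61 in every other library, and lower by -1.32 ± 0.25, -1.18 ± 0.26 and -1.43 ± 0.24 (edgeR adjusted p = 0.000167, 0.000988 and 6.08e-06). The first was lost without the library term and without either library (-1.57 without the jejunum, -1.98 without the ileum), and DESeq2 did not call the second. Jaml, an adhesion molecule that binds a ligand on epithelial cells, was lower by -1.35, -1.72 and -1.76, and Gpr55 by -1.25, -1.46 and -1.46. Without the ileum library neither passed in any comparison (-0.49, -1.12 and -1.12 for Jaml; -0.31, -0.28 and -0.19 for Gpr55), and without the jejunum library Jaml did not pass against Cd8b1-positive cells (-1.42). DESeq2 called Jaml in the last 2 comparisons and Gpr55 in none. Ccr9, the homing receptor for the small intestine, was lower than in Cd8b1-positive (-1.41) and gamma-delta cells (-1.04), but not in DESeq2 or without either library (-1.55 and -1.09 without the jejunum, -1.42 and -0.50 without the ileum), and -0.33 against Cd8a-only cells did not pass. Itgb7, the partner chain of Itgae, did not pass in any comparison (-0.78, -0.40 and -0.35), and neither did Cd69 (0.33, 0.46 and 0.55), an activation and residence antigen. Itga4, which pairs with Itgb7 for entry from the blood, was 1.25 ± 0.25 higher than in gamma-delta cells (edgeR adjusted p = 0.000208), a call lost in DESeq2 and without the jejunum (1.32) or ileum library (1.69).

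Most cytotoxic genes were called lower in each comparison, with 8, 7 and 9 of 12 and none higher (medians -1.33, -1.14 and -1.30). The list summed to 173, 388 and 80.2 UMIs per 10000 in Cd8-negative cells. It summed to 584, 231 and 236 in Cd8b1-positive, 147, 563 and 273 in Cd8a-only and 456, 415 and 382 in gamma-delta cells. The sum was thus above that of jejunum Cd8b1-positive and duodenum Cd8a-only cells, and below the same library of each class otherwise. Nkg7, a granule protein of cytotoxic cells, was at 5.24, 9.66 and 4.33 UMIs per 10000, whereas every library of the other classes was at 11.2 or more. It was in 32.3% of Cd8-negative cells and in 89.7% to 95.7% of the other classes. Nkg7 differed by -1.30 ± 0.25, -1.43 ± 0.25 and -1.48 ± 0.24 (edgeR adjusted p = 0.000131, 1.47e-05 and 3.19e-06). The first was lost in DESeq2 and without the ileum library (-0.49), the second without either library (-1.27 without the jejunum, -1.08 without the ileum), and all 3 without the library term. Ctsw, a protease of cytotoxic lymphocytes, was at 2.24, 2.02 and 2.64 against at least 4.01, and lower by -1.42 ± 0.25, -1.98 ± 0.24 and -1.66 ± 0.23 (edgeR adjusted p = 1.82e-05, 2.34e-09 and 8.29e-08). DESeq2 called all 3 Ctsw differences, while the first was lost without the library term and without the jejunum (-1.22) or ileum library (-1.59) and the second without the jejunum library (-1.46).

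Chemokine genes of this list split by comparison. Ccl4 was at 1.99, 1.30 and 0.586 UMIs per 10000, below the same library of each other class, and lower by -3.49 ± 0.30, -1.71 ± 0.32 and -2.93 ± 0.29 (edgeR adjusted p = 2.06e-15, 8.86e-05 and 4.62e-13). The second was not called in DESeq2 or without either library (-1.29 without the jejunum, -0.73 without the ileum), and the first not without the ileum (-1.45). Xcl1, the ligand of a receptor on cross-presenting dendritic cells, was lower by -1.35, -1.65 and -2.10, although 39.0% of its Cd8-negative UMIs came from 1 cell. None of the Xcl1 calls passed without the jejunum library (-1.22, -1.55 and -0.69), nor the first without the ileum library (-0.39). Ccl5 was at 56.6, 156 and 35.5 and differed by -0.66, -0.87 and -0.98, of which the first did not pass (edgeR adjusted p = 0.245) and the others passed in edgeR (adjusted p = 0.0328 and 0.00883) but not in DESeq2. Without the ileum library neither of these passed (-0.47 and -1.03), and the second class, Cd8a-only, was lost without the duodenum (-0.82) or jejunum library (-1.12) as well.

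Of the granzymes, Gzmk was lower than in Cd8b1-positive cells (-2.47; edgeR adjusted p = 6.47e-07), a call lost without the ileum library (-3.41), and did not pass against Cd8a-only (-0.57) or gamma-delta cells (-1.12). Gzma was at 81.8, 179 and 28.2 UMIs per 10000 in Cd8-negative cells, 53.8, 49.9 and 52.4 in Cd8b1-positive, 9.79, 241 and 94.7 in Cd8a-only and 189, 159 and 151 in gamma-delta cells. These ranges overlapped in each comparison, and Gzma did not pass (0.66, -0.75 and -0.88; edgeR adjusted p = 0.387, 0.157 and 0.0533). It came from 24.4% of the Cd8-negative cells against 55.8% to 68.8% of the others, and from 9.13% of enterocyte barcodes. Gzmb passed against gamma-delta cells alone (-0.91; edgeR adjusted p = 0.0455), a call lost in DESeq2 and without the duodenum (-0.90) or ileum library (-0.67). In the jejunum Gzmb was at 36.2 in Cd8-negative and 30.8 in gamma-delta cells, and in the ileum at 4.96 and 26.4.

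Receptors and adaptors of natural intraepithelial T cells gave different answers by comparison. Against Cd8b1-positive cells 7 of 12 tested (15 listed) were higher and 1 lower, with a median of 1.95. Against Cd8a-only cells none was higher and 6 were lower (median -1.23), and against gamma-delta cells none was higher and 5 were lower (median -0.58). These counts leave out Cd244, which was listed under the name Cd244a and was lower in each comparison (-0.97, -2.15 and -1.87). Fcer1g, the signalling chain of Fc and natural killer receptors, was at 5.73, 11.1 and 3.91 UMIs per 10000 in Cd8-negative cells. It was at 0, 0 and 0.936 in Cd8b1-positive, 10.7, 31.1 and 13.8 in Cd8a-only and 14.4, 19.1 and 13.4 in gamma-delta cells. The Cd8-negative libraries were above every Cd8b1-positive one and below the same library of the other classes. Fcer1g differed by 2.63 ± 0.31, -1.57 ± 0.26 and -1.26 ± 0.25 (edgeR adjusted p = 3.76e-10, 4.24e-06 and 0.000172), and DESeq2 called none of these. Without a library the second did not pass (-1.27 without the jejunum, -1.14 without the ileum), and without the library term neither did the second or the third.

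Tyrobp, the adaptor known as DAP12, was 3.14 ± 0.32 above Cd8b1-positive cells (edgeR adjusted p = 2.50e-12), which passed under every alternative that tested it. Against Cd8a-only and gamma-delta cells Tyrobp differed by -0.59 and 0.06 and did not pass (edgeR adjusted p = 0.272 and 0.981). Klrd1, which encodes CD94, was -2.12 ± 0.29 and -2.10 ± 0.28 against these classes, not in DESeq2 and, for the first, not without the ileum library (-1.56). Cd7 was at 5.24, 17.6 and 4.76 UMIs per 10000 and did not differ beyond its error from Cd8b1-positive cells (-0.08 ± 0.28; edgeR adjusted p = 0.998), while it was lower than in Cd8a-only (-1.56) and gamma-delta cells (-1.36), not in DESeq2. Cd160, a receptor for the herpesvirus entry mediator, was the gene among those counted that was lower than in Cd8b1-positive cells as well. It was at 1.50, 0.432 and 2.20 against 8.83, 7.44 and 5.56, and lower by -1.64 ± 0.27, -1.70 ± 0.27 and -1.67 ± 0.26 (edgeR adjusted p = 4.15e-06, 1.84e-06 and 6.48e-07). DESeq2 called all 3 Cd160 differences, but none passed without the library term or without the jejunum library (-1.32, -1.49 and -1.08).

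The Cd8-negative cells were next split by Cd4, which no limit had used. Sums of at least 5 cells left 708 genes, with Cd4 itself left out, and held the 5 jejunum and 65 ileum cells with Cd4 but not the 4 of the duodenum. None was called higher (0%) and 6 were called lower (0.847%) in cells with Cd4 than in the 143 without, while 43 genes had an unadjusted p under 0.05. DESeq2 called 6 lower and none higher, 5 of them the same genes. Other settings called genes higher as well, 4 (beside 14 lower) without Scrublet calls, 4 (beside 10) with sums of at least 3 cells and 5 (beside 25) without a filter on low counts. These settings tested 705, 398 and 13095 genes. The 6 were Cd7 (-3.57 ± 0.32, edgeR adjusted p = 0.00427), Fcer1g (-4.71 ± 0.49, 0.00616), Gzmb (-2.90 ± 0.36, 0.0118), Tyrobp (-4.30 ± 0.54, 0.0118), Klrd1 (-4.33 ± 0.58, 0.0144) and Nkg7 (-1.98 ± 0.30, 0.0267). This fit had 1 residual degree of freedom, and without TMM scaling or without the library term none of the 6 passed. Of the intraepithelial receptor list 4 of 5 tested were lower (median -4.30), and of the cytotoxic list 2 of 6 (median -2.77), beside a median of 0.00 over all 708 genes.

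Shares of cells show the same split. Fcer1g was in 2.70% of the cells with Cd4 and 27.3% of those without, Tyrobp in 1.35% and 19.6%, Klrd1 in 2.70% and 29.4%, and Cd7 in 12.2% and 38.5%. Itgae was in 5.41% and 39.2%, although its difference of -3.54 did not pass (edgeR adjusted p = 0.0537). Costimulation genes leaned the other way without passing, with none of 7 called and a median of 0.88. Cd28 was in 83.8% of cells with Cd4 and 42.7% without (1.47, edgeR adjusted p = 0.0785), Ctla4 in 52.7% and 20.3% (1.64, edgeR adjusted p = 0.0538), and Icos in 60.8% and 31.5% (1.30, edgeR adjusted p = 0.122). Ccr7 was level, at 17.6% and 17.5%. Median depth was 4146 UMIs in cells with Cd4 and 3557 in those without. Of the 33 Cd8-negative cells at 800 to 2000 UMIs, 4 held Cd4. The part of depth in this split was not tested.

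**Figure D4:**
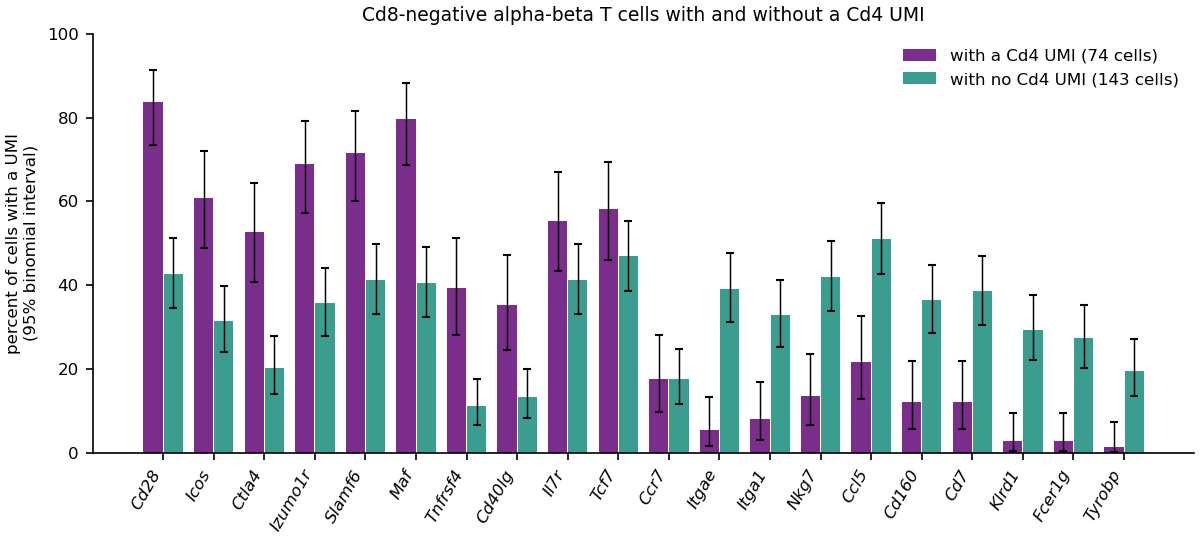
Percentage of cells with at least 1 UMI of each of 20 genes among the 74 Cd8-negative cells with Cd4 and the 143 without. Cd28, Icos, Izumo1r and Maf bars are taller in the cells with Cd4, and Itgae, Cd7, Fcer1g, Tyrobp, Klrd1 and Nkg7 bars in the cells without.

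Within cells, Cd28 and the intraepithelial genes were seldom detected together. Of 123 cells with Cd28, 7 (5.69%) held Itgae, 5 (4.07%) held Fcer1g, 14 (11.4%) held Cd7 and 15 (12.2%) held Nkg7. Of the 94 cells without Cd28, 56.4% held Itgae, 38.3% held Fcer1g, 53.2% held Cd7 and 58.5% held Nkg7. Among 41 cells with Fcer1g, 37 held Cd7, 29 held Itgae and 27 held Tyrobp, and of 29 cells with Tyrobp 28 held Klrd1. Cells of a library share their source, so these are counts and not a test.

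To give each cell a side, Cd28, Icos and Izumo1r were set against Cd7, Fcer1g and Klrd1, genes picked after their values were seen. At least 1 gene of the first trio and none of the second was found in 123 cells (56.7%, exact interval 49.8 to 63.4), of which 62 held Cd4 and 8 held Itgae. The second trio alone was found in 53 cells (24.4%, 18.9 to 30.7), of which 2 held Cd4 and 41 held Itgae. Both trios were in 23 cells (10.6%) and neither in 18 (8.29%). Median depth was 3836 UMIs for the first, 3823 for the second, 4162 for both and 2464 for neither, so that the cells with neither were the shallowest. The first trio alone was in 6 of 9 cells of the duodenum, 8 of 17 of the jejunum and 109 of 191 of the ileum, and the second in 2, 5 and 46. In Cd8b1-positive, Cd8a-only and gamma-delta cells the first trio alone was in 5.10%, 4.24% and 1.03% and the second alone in 72.0%, 82.4% and 92.8%. Of the Cd8-negative cells without Cd4, 42.7% had the first trio alone and 35.7% the second.

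**Figure D5:**
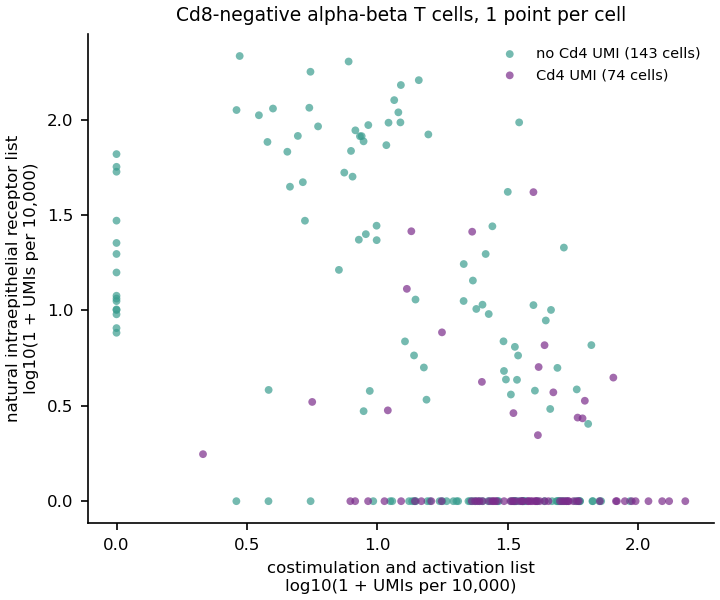
Each point is 1 Cd8-negative cell, with the summed level of the costimulation list on the horizontal axis and of the natural intraepithelial receptor list on the vertical axis, both as log10 of 1 plus UMIs per 10000 UMIs; colours mark cells with and without Cd4. Cells with Cd4 lie along the costimulation axis with a median intraepithelial level of 0, and cells high on the intraepithelial axis are mostly without Cd4.

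Further lists moved less or in few genes. T cell receptor signalling genes had 1, 3 and 4 of 14 higher and none lower (medians -0.06, 0.36 and 0.28). Immediate early genes had 5, 2 and 5 of 10 higher and none lower (0.93, 0.67 and 0.76); Junb, a subunit of AP-1, was at 18.9, 28.7 and 22.5 UMIs per 10000 and higher by 0.97, 1.35 and 1.42, with no call in DESeq2 for the first (nor without the ileum library, 0.55) and none without the jejunum library for any (1.12, 0.91 and 1.29), and 89.0% of enterocyte barcodes held it. Interferon response genes had 1, 3 and 3 of 7 higher (0.45, 0.95 and 0.91), but Ifit1 was at 0, 0 and 1.04, so that these UMIs came from ileum cells alone. Gamma chain genes, which alpha-beta T cells can transcribe from the unused locus, had 2, 3 and 3 of 3 lower (-1.71, -1.99 and -2.32). Tcrg-C2 among them was at 1.25, 0.576 and 1.33 and lower by -1.91, -2.09 and -2.05, which DESeq2 called in all 3 (the first not passing without the jejunum library, -1.65). Where Tcrg constant genes are alike, their tags may be split uncertainly by counting. Cell cycle genes had 3, 2 and 5 of 7 lower (-1.94, -2.17 and -2.39): Mki67 gave 3 UMIs in Cd8-negative cells, and Rrm2 none, which makes it at least 4.94, 7.54 and 7.42-fold lower, with 63.6%, 93.8% and 27.4% of the other class's Rrm2 UMIs in 1 cell.

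The 10 genes furthest apart in each comparison and direction, list members among them, included Tbc1d4 (4.52), Ramp3 (4.31), Nav2 (4.24) and Tnfsf8 (3.97) against Cd8b1-positive cells and Slamf1 (4.60) against gamma-delta cells. The Nav2 call was lost in DESeq2 (adjusted p = 0.153), without the library term and without the ileum library. Gpr183, a receptor for oxysterols that positions lymphocytes, was higher by 2.63, 4.69 and 4.57, and Cxcr4 by 2.51, 3.54 and 3.65. Pecam1, an adhesion molecule of endothelium and of naive T cells, was at 0.997, 0.865 and 0.729 UMIs per 10000 and higher by 3.68, 3.66 and 3.45. These calls passed under every alternative that tested Pecam1. Lower genes included Actn2 (-2.85), Capn3 (-2.34) and Gzmk (-2.47) against Cd8b1-positive cells. DESeq2 did not call Capn3 there (adjusted p = 0.394), and without the jejunum or ileum library it did not pass (-1.68 and -0.22). Without the ileum library Actn2 did not pass either (-1.97). Several of the furthest apart rested on 1 cell: Gcg on 98.7% of Cd8a-only UMIs from 1 cell and Hbb-bs on 99.4% of gamma-delta UMIs from 1 cell. Gm44175, lower than in Cd8a-only cells by a ratio of 39.6 (6.54 to 1618), lies between Cd8b1 and Cd8a on chromosome 6 at 71354351 to 71360829 (GRCm38), next to genes that the limits used.

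Markers of other cells were measured beside these results. Among 10 macrophage and dendritic cell markers, Csf1r, C1qa, C1qb, Adgre1, Flt3, Xcr1 and Clec9a were at 0 in the Cd8-negative cells, and the list summed to 4.05 UMIs per 10000 against 1.53, 9.34 and 3.21 in the other classes. Of this, Cst3 made up 3.69, or 1.30 without 1 cell that held 65.3% of its UMIs. The B cell list summed to 1.26, with a UMI in 15 cells (6.91%), and the plasma cell list to 1.65 against 47.7 in Cd8b1-positive, 1.85 in Cd8a-only and 1.83 in gamma-delta cells. Of the Jchain and Igha UMIs in Cd8b1-positive cells, 98.2% and 98.3% came from 1 cell for each gene. By count, the B cell list had 0, 0 and 1 of 2 lower, the plasma cell list 2, 0 and 0 of 3 lower, and the macrophage list 1, 0 and 0 of 2 higher and 0, 1 and 0 lower. Natural killer and innate lymphoid markers had 3, 0 and 1 of 4 higher. The enterocyte list summed to 46.8, with 0, 2 and 0 of 11 higher, and the goblet, tuft and Paneth list to 90.7, with 0, 3 and 4 of 8 higher and 0, 1 and 0 lower. Of Muc2 and Fcgbp, goblet genes of this list, 51.8% and 53.1% of the UMIs came from 1 cell of 26195 UMIs. The enteroendocrine list had 1, 0 and 0 of 1 lower, and Pecam1 was the 1 gene tested of the stromal list. Scrublet, a doublet caller, marked 5 Cd8-negative cells, all in the ileum and without Cd4, and without these the share with Cd4 was 34.9%. The cell of 26195 UMIs with much of the goblet gene RNA held Cd4 and was not marked. The part of RNA from other cells in the differences above was not tested.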

How the data were processed

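Live-sorted cells of the small intestinal epithelial fraction were sequenced by 10x Genomics 3′ v3 chemistry, 1 library per segment. The deposited values are UMI counts per gene and barcode, which the authors made with Cell Ranger 3.0.2 on GRCm38/mm10, with no normalization. The libraries held 98518847 (duodenum), 87656078 (jejunum) and 78074516 (ileum) UMIs over 9501, 8139 and 9595 barcodes and 31053 genes.

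Counts were summed per library and T cell class and tested with edgeR 4.0.16 in R 4.3.3 (filterByExpr, TMM, quasi-likelihood, library term, Benjamini-Hochberg, threshold 0.05), and with DESeq2 1.42.0 as an alternative. The 14 genes of the limits and mitochondrial genes were left out. Enterocyte barcodes were within the UMI and mitochondrial limits and held at least 5% enterocyte gene UMIs. They also held no UMI of the Cd3 genes or of Trac, Trbc1 and Trbc2. Doublets were marked with Scrublet in scanpy 1.11.5, which called 0, 1 and 148 barcodes, or 0.888% in all. The 26 gene lists are those named in the text. Some of their genes are not reported here. Besides their members, the genes named were the 10 with the largest fold change per comparison and direction among those called with at least 20 UMIs in the higher class and 1 direction in both libraries; others are named where a result turns on them. The limits, lists and members were chosen with earlier results of these data known. Nothing says that the pooled mice differ between libraries. P-values therefore measure how class differences vary between these libraries alone. The fit of the 4 classes had 9 sums and 3 residual degrees of freedom. Scripts were tested on simulated data.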

Additional observations from a re-analysis of the deposited data

Results flagged for a closer look

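In 11 cases the difference between Cd8-negative cells and another T cell class pointed one way in the jejunum and the other way in the ileum. The difference between the segments was not tested, each segment has 1 library, and the jejunum held 17 Cd8-negative cells against 191 in the ileum. Values are UMIs per 10000 UMIs, Cd8-negative cells first.

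Against Cd8b1-positive cells, Tcf7 was at 1.59 and 1.70 in the jejunum but 2.61 and 0.750 in the ileum, and Tox at 0.576 and 1.06 but 1.95 and 0.646. Fasl was at 1.73 and 1.28 but 0.610 and 1.70, and Tyms at 0.288 and 0 but 0.0478 and 0.342. Isg15 was at 0.288 in jejunum Cd8-negative cells against 0.514 in Cd8a-only and 0.706 in gamma-delta cells, and at 2.42 against 0.509 and 0.673 in the ileum. Ifit1, another interferon response gene, was at 0 against 0.217 in gamma-delta cells of the jejunum and at 1.04 against 0.0647 in the ileum.

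Against gamma-delta cells, 4 cytotoxic or residence genes were slightly higher in the jejunum and lower in the ileum. Gzmb was at 36.2 and 30.8 but 4.96 and 26.4, Fasl at 1.73 and 1.47 but 0.610 and 1.57, Gpr55 at 1.73 and 1.63 but 0.335 and 1.45, and Prf1 at 0.865 and 0.625 but 0.155 and 0.802.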

How the results depend on the processing

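The cells behind the calls between T cell classes came mainly from the ileum library, and the fewest genes were called without it. The numbers of genes called against Cd8b1-positive, Cd8a-only and gamma-delta cells were 219, 241 and 353, and became 35, 60 and 83 in DESeq2, 28, 49 and 108 without the library term, and 86, 116 and 169 with sums of at least 5 cells. The genes tested were 6510 in the first 3 of these settings and 2163 with sums of at least 5 cells. They were 7002 without the duodenum, 9273 without the jejunum and 2050 without the ileum, so these counts are not shares of the same genes. Leaving out 1 library gave 7 to 219, 33 to 233 and 78 to 371 genes; the low ends are without the ileum, and without the jejunum they were 85, 99 and 193. Of the genes called against gamma-delta cells 60.3% were higher, against 71.1% in DESeq2, 73.1% without the library term and 53.6% without TMM scaling. The 6 genes called between cells with and without Cd4 became 0 without TMM scaling and without the library term, 30 without a filter on low counts, 18 without Scrublet calls, 14 with sums of at least 3 cells, and 5 to 10 without 1 library. The split by Cd4 tested 708 genes in the main fit, 13095 without the filter and 705 without Scrublet calls. With sums of at least 3 cells it tested 398, and without 1 library 250 to 2912. Without 1 library 26 to 208 Cd8-negative cells were left. The share with Cd4 was 9.68% after thinning to 800 UMIs.

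Among values of single genes, 6634 kept their side of the threshold, 645 lost and 130 gained the call, and 17 changed direction. A change of direction was counted only with a call in the main or the other setting. The 6634 thus include genes called in neither setting, whatever their direction. The setting without the duodenum library was entered under both minimum cell numbers with the same sums. In the main fit of the classes that library gave only a gamma-delta sum. Direction changed for Sct against Cd8b1-positive cells without Scrublet calls (0.0059), Cst3 against Cd8a-only cells without cells holding a B cell marker (1.35) and Agr2 against gamma-delta cells without the library term (-0.22); the cause was not tested. Leaving out a library moved further genes across 0: against Cd8b1-positive cells Klre1 (-0.14 to 3.22), Cst3 (-0.12 to 1.52), Fasl (-1.60 to 0.041) and Igha (-6.77 to 0.94), against Cd8a-only cells Stmn1 (-2.81 to 1.34), Isg15 (-0.61 to 2.10), Muc2 (-0.98 to 1.31) and Cst3 (-0.91 to 0.66), and against gamma-delta cells Isg15 (-0.62 to 1.70), Agr2 (-3.53 to 1.34), Tff3 (-0.86 to 1.09) and Lgals4 (-1.90 to 0.061). Leaving out the jejunum or ileum with sums of at least 10 cells left no residual degrees of freedom and was not run. The split by Cd4 could not be fitted with sums of at least 10 cells, with at least 2000 UMIs, with at most 20% mitochondrial UMIs, with enterocyte genes below 0.5% or without cells holding a B cell marker. The classes of a library were paired through the library term.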
